A study of Homo sapiens with 6 samples.

Results

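LINC00158 and 6 better known noncoding transcripts of B cells were followed in a Burkitt lymphoma line exposed to lipopolysaccharide (LPS). The list held the long noncoding RNAs LINC00158, NEAT1, MALAT1 and GAS5 and the microRNA host genes MIR155HG, MIR17HG and DLEU2. Members were all probe sets of the array whose annotation gives exactly 1 gene symbol, equal to a name on the list. This left 5 of the 7 genes, with 22 of the 54613 probe sets tested: 12 for MALAT1, 7 for DLEU2 and 1 each for LINC00158, MIR17HG and GAS5. MIR155HG and NEAT1 had only probe sets annotated with several symbols (1 for MIR155HG and 9 for NEAT1), so neither gene has a value here. Such probe sets were also left out for GAS5 (4), DLEU2 (3) and MIR17HG (1). The list was selected on the LPS difference of LINC00158 in these same arrays. Differences of the members are therefore given as a description, with standard errors and no p-values.

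BL-2 is an established Burkitt lymphoma line; this cancer arises from B cells of the germinal centre. The groups were BL-2 cells exposed for 6 h to LPS, the glycolipid of the outer leaflet of Gram-negative bacteria, and BL-2 cells without treatment, with 3 samples each and 1 Affymetrix array per sample. All samples are the same line, a single tumour's cells. Whether the samples were separate cultures is not in the labels. The p-values then rest on a spread between these samples that may be technical.

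Long noncoding RNAs are transcribed and processed much like messenger RNAs but act as RNA, or serve as precursors from which smaller RNAs are cut. MIR155HG, MIR17HG and DLEU2 are host genes of the last kind: their primary transcripts carry the hairpins of miR-155, of the miR-17-92 cluster and of miR-15a and miR-16-1. miR-155 is needed for normal germinal centre responses, the miR-17-92 cluster is amplified in some B cell lymphomas, and miR-15a and miR-16-1 are lost by deletion in many chronic lymphocytic leukaemias. MALAT1 lies in nuclear speckles and NEAT1 builds paraspeckles, both nuclear bodies of RNA-processing proteins. GAS5 is a host gene of small nucleolar RNAs whose own spliced RNA is degraded when translated and can bind the glucocorticoid receptor.

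The mature microRNAs made from MIR17HG are shown because they define which targets the host gene could act on. The array reads the host transcripts, not these microRNAs, whose levels were not analysed here. Sequences are from RefSeq (GRCh38.p14), 5′ to 3′, with the seed, bases 2 to 8, in capitals. The 6 products lie on chromosome 13, plus strand, from position 91350618, where miR-17-5p begins, to 91351382, where miR-92a-3p ends. They share 4 seeds.
hsa-miR-17-5p: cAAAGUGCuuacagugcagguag
hsa-miR-20a-5p: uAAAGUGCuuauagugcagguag
hsa-miR-18a-5p: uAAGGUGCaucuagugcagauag
hsa-miR-19a-3p: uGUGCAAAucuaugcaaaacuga
hsa-miR-19b-3p: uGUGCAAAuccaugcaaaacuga
hsa-miR-92a-3p: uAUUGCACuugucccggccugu

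miR-17-5p and miR-20a-5p have the same seed, as do miR-19a-3p and miR-19b-3p. The DLEU2 products are shown for the same reason. They lie on the minus strand of chromosome 13, miR-15a-5p from 50049167 to 50049188 and miR-16-5p from 50049027 to 50049048, inside DLEU2, and share 1 seed.
hsa-miR-15a-5p: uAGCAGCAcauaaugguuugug
hsa-miR-16-5p: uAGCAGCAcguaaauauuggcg

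LINC00158 had the second largest LPS rise of the 19775 genes measured, and the largest among the 2696 noncoding genes, which include the members. Its values, as deposited on a log2 scale, were 7.34, 7.45 and 7.56 on the LPS arrays and 6.47, 6.55 and 6.47 on the control arrays. Every LPS array lay above every control array, with a gap of 0.79 between the lowest LPS and the highest control value. LINC00158 averaged 7.45 ± 0.11 in LPS cells and 6.50 ± 0.044 in control cells (SD, n = 3 each). The difference, LPS minus control, was 0.95 on the log2 scale (SE 0.069), or 1.94-fold on the deposited scale. It lay between 0.90 and 1.01 with any array left out. The control level was close to the array medians, which ran from 6.42 to 6.47, and the LPS level was about 1 log2 unit above them. Most markers of cell types absent from a B cell line also lay near those medians, such as the T cell gene CD3D at 6.52 in LPS and 6.54 in control cells. The fibroblast gene COL1A1 lay higher, at 7.99 in both groups, above the LPS mean of LINC00158. No detection calls were used, so the control value is not shown to be above background, and the fold and the rank may be compressed. The height of the LPS value alone does not show it to be above background either. Its probe set carries no suffix for possible cross-hybridisation.

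**Figure D1:**
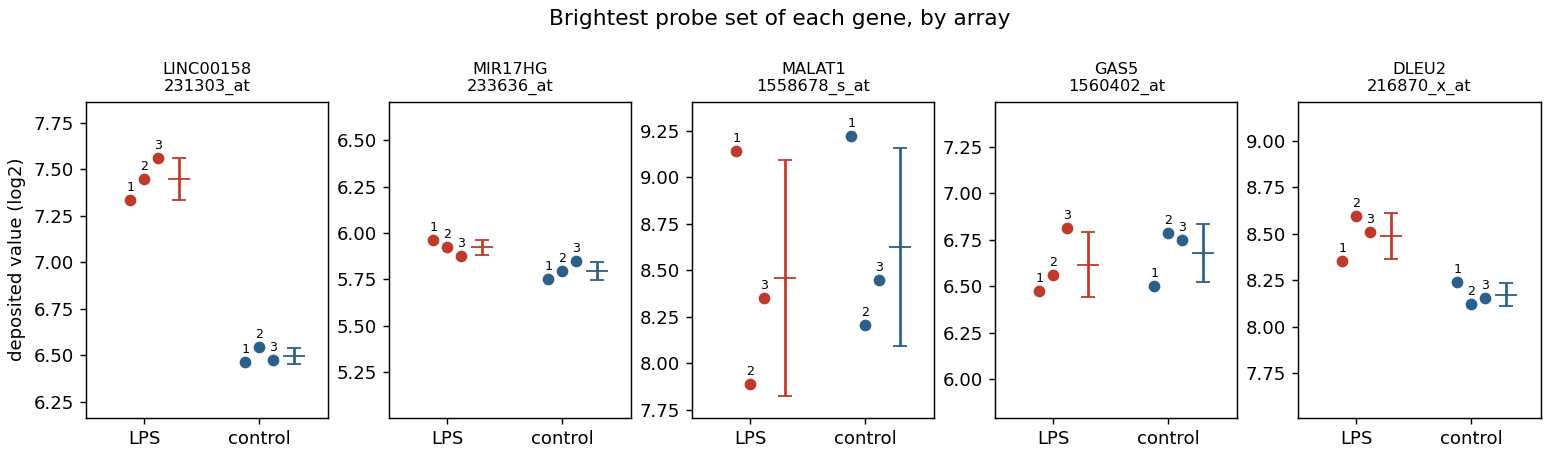
Deposited log2 value (y axis, a separate range of equal span for each gene) of the brightest probe set of each of the 5 genes, by group (x axis). Points are single arrays with their replicate number, and bars show the mean ± SD of 3 arrays; the LPS points of LINC00158, 7.34 to 7.56, lie clear of its control points, 6.47 to 6.55, while those of MALAT1 and GAS5 overlap.

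LINC00158 was the only 1 of the 22 member probe sets past an adjusted p of 0.05 in limma's test over all probe sets, where 0.264% of the 54613 tested passed. Since LINC00158 was chosen by this contrast, nothing is read from that count. Over all 22 probe sets the median difference was 0.01, with 12 above 0 and 10 below. Without LINC00158 the other 21 ran from -0.20 to 0.31, also with a median of 0.01. LPS arrays lay wholly above control arrays in 4 of the 22, where 7% of all tested probe sets did, and wholly below in 1 of the 22, where 6.38% did. The other 17 overlapped. After LINC00158, at 0.95, the next member by difference was a DLEU2 probe set at 0.31.

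**Figure D2:**
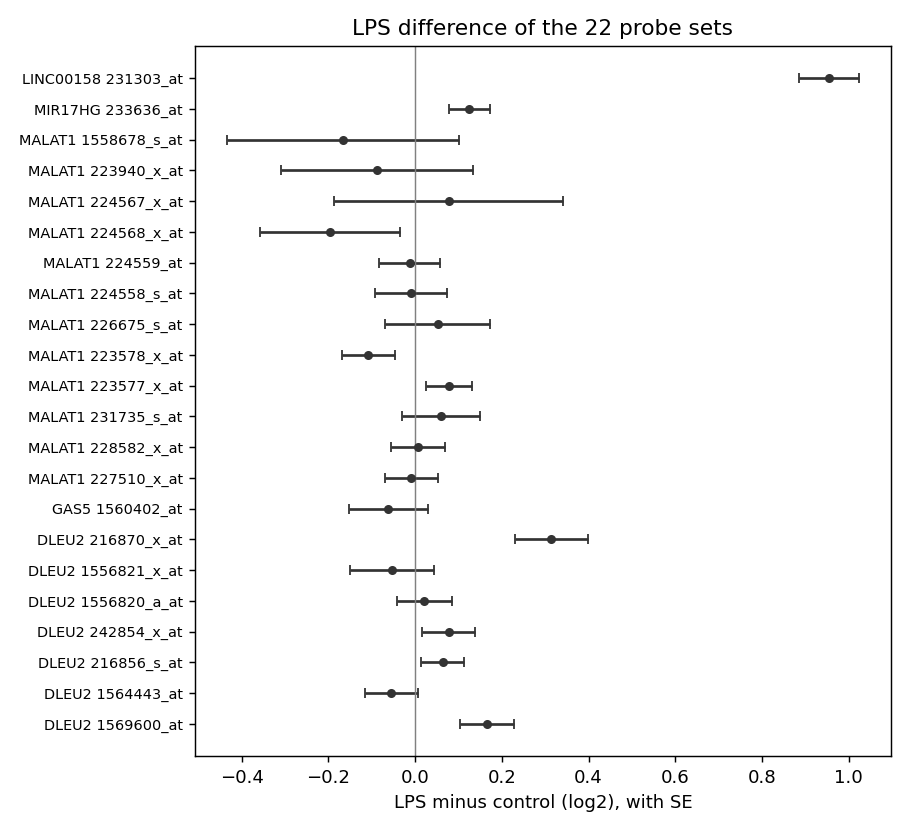
LPS minus control difference (x axis, log2) of the 22 member probe sets (y axis), with 1 standard error on each side of the point, from the fit over all 6 arrays. LINC00158 stands at 0.95 and the other 21 lie between -0.20 and 0.31; the widest error bars belong to 4 MALAT1 probe sets, with SE from 0.16 to 0.27.

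LINC00158 lies on the minus strand of chromosome 21, in a stretch that also holds MIR155HG, with 3 RefSeq genes between them. Its promoter window is shown because LINC00158 is the member that stands out. The window runs from 250 bases before to 50 bases after the annotated start, at chr21:25431652-25431951 (GRCh38.p14, minus strand, RefSeq). Capitals mark matches to the E-box CANNTG and to the AP-1 motif TGANTCA, the last capital run holding an AP-1 match that overlaps an E-box match.
LINC00158 promoter: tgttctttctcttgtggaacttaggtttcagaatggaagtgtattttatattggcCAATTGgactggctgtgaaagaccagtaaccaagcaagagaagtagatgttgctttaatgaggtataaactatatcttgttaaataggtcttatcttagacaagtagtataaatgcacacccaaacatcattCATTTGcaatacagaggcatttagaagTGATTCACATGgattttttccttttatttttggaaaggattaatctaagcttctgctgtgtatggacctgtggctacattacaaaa

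On both strands the window held the E-box at 3 places and the AP-1 motif at 1. Of 35114 promoter windows of the same length, 68.7% hold an E-box and 7.71% this AP-1 motif. The interferon regulatory factor motif GAAANNGAA, found in 8.11% of the windows, and the NF-kB consensus, found in 11.3%, had 0 matches in these letters. The window was poor in G and C, at 34.7% against a median of 58.7%, and 4.01% of windows had less. A match describes the letters only, and no factor's binding was measured.

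None of the 16 measured genes nearest to LINC00158 on chromosome 21, 8 on each side in RefSeq order, passed limma's test, where 0.389% of all genes did. Their adjusted p-values ran from 0.276 to 1, and 1 had an unadjusted p under 0.05. The median difference of the 16 was -0.01, with 6 above 0 and 10 below. Most were dim: their median level was 6.20, below the array medians of 6.42 to 6.47. With dim probe sets filtered out, 4 of the 16 remained. A change could be compressed or missed at such levels, so the dim neighbours are not shown to be unchanged. On the side before LINC00158, all 8 lay between -0.08 and 0.01: LINC01692, LINC01689, D21S2088E, LINC00308, LINC01687, LINC01425, LINC00317 and the cell adhesion gene NCAM2. On the side after it, where MIR155HG lies, the nearest measured gene LINC00515 was at 0.04 (SE 0.070). JAM2, a junctional adhesion molecule, was at 0.03, ATP5PF, a subunit of the mitochondrial ATP synthase, at -0.04, and the ETS family factor GABPA at -0.03. APP, the amyloid precursor protein, was at -0.06, CYYR1 at -0.04 and the metalloproteinase ADAMTS1 at 0.06.

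MRPL39, a protein of the mitochondrial ribosome and the next measured gene after LINC00515, had the largest difference among the neighbours. It stood at 11.16, 11.00 and 11.18 on the LPS arrays and at 10.83, 10.76 and 10.80 on the control arrays. The groups did not overlap, and the difference of 0.32 (SE 0.092) did not pass (adjusted p = 0.276 by limma). With array set, a technical division of the 6 arrays, as a term in the fit, MRPL39 passed (adjusted p = 0.0206). That fit called 734 of 54613 probe sets, where the fit without the term called 144. The other MRPL39 probe set was at 0.11 in the fit without the term.

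**Figure D3:**
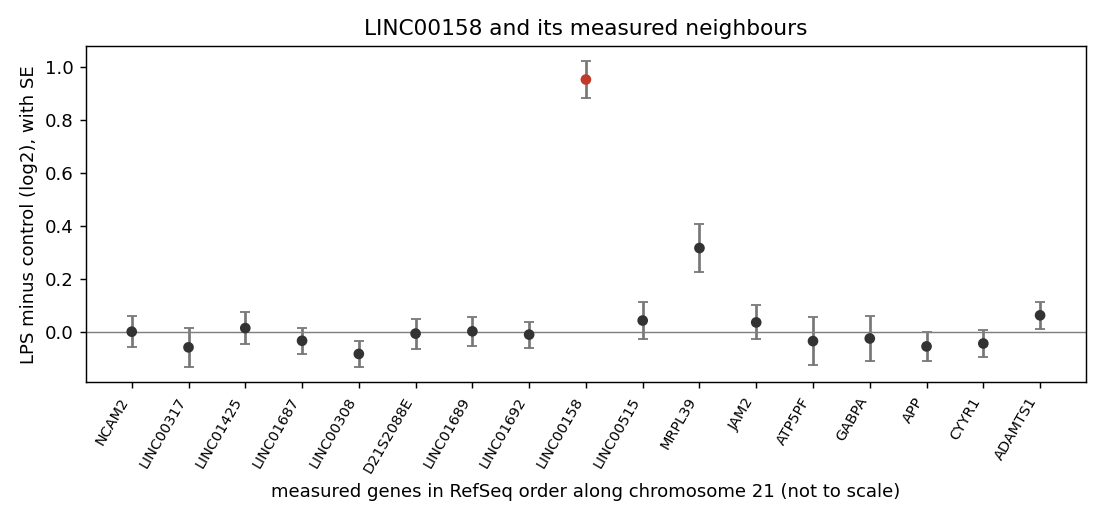
LPS minus control difference (y axis, log2, with SE) of LINC00158 and its 16 measured neighbours, in RefSeq order along chromosome 21 and not to scale (x axis, 8 genes on each side). LINC00158 is at 0.95, MRPL39 at 0.32 and the other 15 between -0.08 and 0.06. The median level of the 16 neighbours was 6.20, where a change could be compressed.

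The genes whose pattern over the 6 arrays was most like that of LINC00158 were RILPL2, IFIT3, CCDC28B, PSPC1 and BATF, among 971 genes whose brightest probe set ranged over at least 0.5. Their Pearson correlations with LINC00158 ran from 0.979 to 0.988, a description over 6 arrays that share the LPS and control division. Chosen for likeness to a gene that differs between LPS and control cells, they had to differ in the same way. That all 5 passed limma's test, where 0.389% of all genes did, is therefore no separate result. BATF, a transcription factor that pairs with IRF4 on DNA, stood at 9.18, 9.50 and 9.51 on the LPS arrays and at 8.67, 8.69 and 8.72 on the control arrays, a difference of 0.70 (SE 0.098, adjusted p = 0.00846). Like LINC00158, BATF was lowest on LPS 1 among the LPS arrays. RILPL2, a protein of ciliary traffic, rose by 0.78 (SE 0.081, adjusted p = 0.0014). IFIT3, an interferon-induced antiviral protein, rose by 1.05 (SE 0.064, adjusted p = 5.25e-06). CCDC28B, a modifier of ciliary disease, rose by 0.51 (SE 0.081, adjusted p = 0.0153), and PSPC1 is given with the paraspeckle proteins. The other CCDC28B probe set was at 0.10. The calls of CCDC28B and BATF were lost when single arrays were left out, which also left 10 to 46 calls over all probe sets, while the differences stayed at 0.49 to 0.54 for CCDC28B and 0.65 to 0.72 for BATF. Without control 3 the adjusted p was 0.149 for CCDC28B and 0.0846 for BATF, and without LPS 2 it was 0.100 and 0.0990. CCDC28B was also at 0.0710 without control 2 and 0.104 without LPS 1.

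The miR-155 pathway was followed through other genes, since MIR155HG itself has no value. Of 16 transcription factors tied to its promoter, NF-kB, AP-1 and others, 0 passed limma's test, where 0.389% of all genes did. An unadjusted p under 0.05 was found for 2, and the median difference was 0.03 (median of all genes, 0.00161). With array set as a term in the fit 2 passed, IRF4 and, named after its value was seen, the AP-1 subunit JUND at -0.32 (adjusted p = 0.0306). That fit called 734 of 54613 probe sets, where the fit without the term called 144. IRF4, a factor of activated B cells and plasma cells, stood at 10.98, 10.84 and 10.64 on the LPS arrays and at 10.44, 9.99 and 10.30 on the control arrays. The groups did not overlap, with a difference of 0.58 (SE 0.12, adjusted p = 0.0852, and 0.00189 with array set as a term). The other 2 IRF4 probe sets were at 0.03 and 0.26. The NF-kB subunits RELB and NFKB2 were at 0.43 (adjusted p = 0.344) and 0.24 (adjusted p = 0.644).

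Of 20 published targets of miR-155, 19 were measured and 1 rose, or 5.26%, where 0.389% of all genes passed. Of the 19, 11 lay above 0 and 8 below, with a median of 0.02. The count was 0 without control 3 or without LPS 2, and 4 with array set as a term in the fit. Calls over all 54613 probe sets moved too. They were 144 in the fit reported, 14 without control 3, 10 without LPS 2 and 734 with the array set term. The 4 were IKBKE, TP53INP1, SOCS1 and, named after its value was seen, the germinal centre signalling gene GCSAM at -0.32 (adjusted p = 0.0322). The riser was IKBKE, a kinase of the innate immune response that phosphorylates IRF3 and IRF7. It stood at 8.81, 8.87 and 8.78 on the LPS arrays and at 8.29, 8.06 and 7.94 on the control arrays, a difference of 0.72 (SE 0.093, adjusted p = 0.00735), and its other probe set rose by 0.64. Without control 3 the difference was 0.64 (adjusted p = 0.0676), and without LPS 2 it was 0.70 (adjusted p = 0.0790). TP53INP1, a p53-induced regulator of cell death and autophagy, stood at 9.14, 9.15 and 9.05 on the LPS arrays and at 9.99, 9.60 and 9.51 on the control arrays. Its difference of -0.58 (SE 0.12) did not pass (adjusted p = 0.0561, and 4.43e-05 with array set as a term). The other 2 TP53INP1 probe sets were at -0.08 and -0.03. SOCS1, an inhibitor of cytokine signalling, was at -0.31 (adjusted p = 0.133, and 0.0234 with array set as a term), and its other 3 probe sets were at -0.08 to -0.04.

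MIR17HG, the host gene of the miR-17-92 cluster, was slightly higher after LPS at a level near the floor of the arrays. It stood at 5.96, 5.93 and 5.88 on the LPS arrays and at 5.75, 5.79 and 5.85 on the control arrays. The groups did not overlap, but the gap between them was 0.030. The difference was 0.13 (SE 0.048), with 0.19 and 0.057 within the array sets A and B. Of all tested probe sets, 6.20% lie below its mean level, and the lowest value on any array was 5.46 to 5.53, so a change could be compressed there.

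None of the genes linked to the miR-17-92 cluster passed limma's test, where 0.389% of all genes did. Of 15 published targets 14 were measured, with 9 above 0, 5 below and a median of 0.01. E2F3, an E2F factor of the cell cycle that is listed both as a target and as a regulator, was at 0.20 (SE 0.081, adjusted p = 0.524). It stood at 9.40, 9.37 and 9.38 on the LPS arrays and at 9.20, 9.12 and 9.22 on the control arrays, without overlap. TGFBR2, a receptor of TGF-beta, was at 0.18 (adjusted p = 0.606) and the cyclin-dependent kinase inhibitor CDKN1A at 0.21 (adjusted p = 0.702). Of the 6 regulators of MIR17HG, MYC was at -0.06 (adjusted p = 0.942) and MYCN at -0.03 (adjusted p = 0.955), and the median was -0.01. MYC is driven by its translocation in Burkitt lymphoma.

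DLEU2, the host of miR-15a and miR-16-1, gave differences that depended on the probe set. The brightest, 216870_x_at, stood at 8.35, 8.60 and 8.51 on the LPS arrays and at 8.24, 8.12 and 8.16 on the control arrays. Its groups did not overlap, with a gap of 0.11, and the difference was 0.31 (SE 0.084), or 1.24-fold. The difference within set A was 0.23 and that within set B 0.37. A further probe set, 216856_s_at, annotated with the same target transcript, gave 0.06 (SE 0.050), at 6.13, 6.19 and 6.10 on the LPS arrays against 6.04, 6.10 and 6.10 on the control arrays, with a gap of 0.003.

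The dimmest DLEU2 probe set, 1569600_at, gave 0.17 (SE 0.063), at 5.93, 6.15 and 6.01 on the LPS arrays and 5.96, 5.79 and 5.85 on the control arrays, which overlapped. The other 4 lay between -0.05 and 0.08. Over the 7 probe sets 5 were above 0 and 2 below, with a median of 0.06 and a mean of 0.076. The value of 0.31 is therefore that of 1 probe set, and its suffix marks possible cross-hybridisation. That suffix or the related _s_at is carried by 4 of the 7.

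The genes that go with DLEU2 showed 0 calls by limma's test, where 0.389% of all genes passed. Among the 10 measured genes around it at 13q14 the median was 0.02, and 2 had an unadjusted p under 0.05: KPNA3, a nuclear import receptor, at 0.24 (adjusted p = 0.508) and SPRYD7 at 0.18 (adjusted p = 0.512). KCNRG, a potassium channel regulator, was at 0.10 (adjusted p = 0.663). All 12 listed targets of miR-15a and miR-16 were measured, with 8 above 0, 4 below and a median of 0.02. CDC25A, a phosphatase that starts the cell cycle, was at 0.24 (adjusted p = 0.525), the growth factor VEGFA at -0.21 (adjusted p = 0.540) and the survival protein MCL1 at -0.19 (adjusted p = 0.642). Of 11 measured genes that process and load microRNAs 0 passed, with a median of 0.02. The 3 with the smallest p were TNRC6A, a silencing partner of Argonaute, at 0.33 (adjusted p = 0.320), the nuclease DICER1 at 0.19 (adjusted p = 0.569) and the exporter XPO5 at 0.20 (adjusted p = 0.580).

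MALAT1 differed more among arrays of the same group than between LPS and control cells. The brightest of its 12 probe sets, 1558678_s_at, stood at 9.14, 7.89 and 8.35 on the LPS arrays and at 9.23, 8.20 and 8.45 on the control arrays. In both groups the array numbered 1 was highest and the array numbered 2 lowest, and the groups overlapped almost fully. MALAT1 averaged 8.46 ± 0.63 in LPS cells and 8.63 ± 0.53 in control cells by this probe set (SD, n = 3 each), a difference of -0.17 (SE 0.27). Without 1 array the difference ran from -0.51 to 0.13. The SD within groups exceeded that of 99.96% of 4487 probe sets within 0.5 of its level.

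A further 3 bright probe sets followed the same course, with correlations of 0.94 to 0.99 with the brightest over the 6 arrays. In 224567_x_at the values were 8.31, 7.23 and 7.30 on the LPS arrays and 8.18, 7.14 and 7.29 on the control arrays, and the difference was 0.08 (SE 0.26). For 223940_x_at the difference was -0.09 (SE 0.22) and for 224568_x_at -0.20 (SE 0.16). Across these 4, array 1 exceeded the mean of arrays 2 and 3 by 0.54 to 1.04 in the LPS group and by 0.55 to 0.97 in the control group. The 4 probe sets may share target sequence, so they are not independent readings.

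The 8 dimmer MALAT1 probe sets differed by -0.11 to 0.08 between LPS and control cells. The only MALAT1 probe set without a cross-hybridisation suffix, 224559_at, stood at 7.05, 6.94 and 6.87 on the LPS arrays and at 7.07, 6.93 and 6.91 on the control arrays. It too was highest on the arrays numbered 1, in a narrower range, with a correlation of 0.83 with the brightest and a difference of -0.01 (SE 0.070). The other 7 correlated with the brightest at -0.07 to 0.93. Over all 12 the differences ran from -0.20 to 0.08, with 5 above 0 and 7 below. In 223578_x_at alone the groups did not overlap, with LPS below control by 0.11 and a gap of 0.011.

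**Figure D4:**
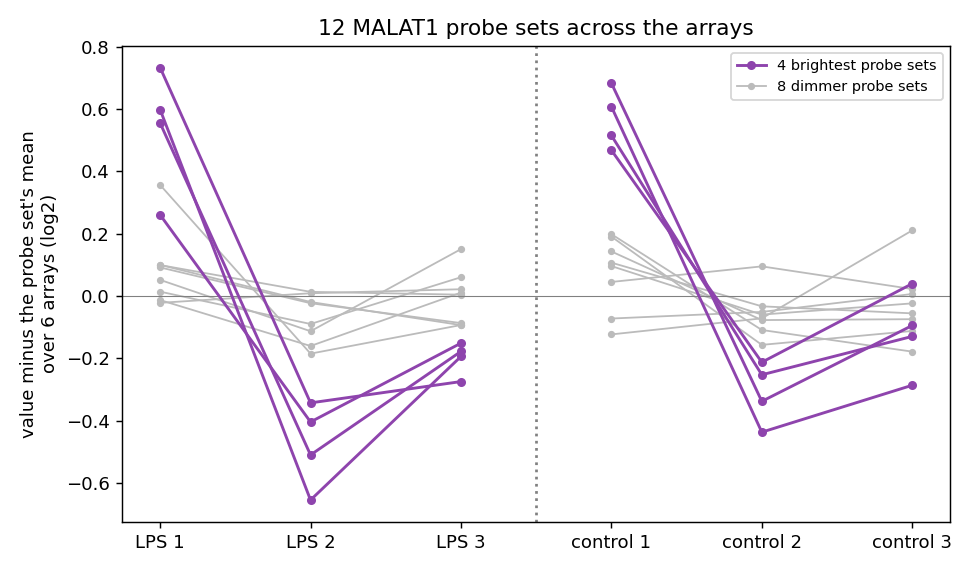
Value of each of the 12 MALAT1 probe sets on each array (x axis, LPS arrays left and control arrays right), minus that probe set's mean over the 6 arrays (y axis, log2). The 4 brightest, in purple, are high on LPS 1 and control 1, by 0.54 to 1.04 over the mean of the other arrays of the group, and low on the rest; the 8 dimmer ones, in grey, vary less.

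With LPS in the fit, set B minus set A ran from -0.72 to -0.32 in the 4 bright MALAT1 probe sets and was below 0 in 10 of the 12. Set A holds both high arrays, LPS 1 and control 1, and also LPS 2, the lowest, and the brightest probe set gave an LPS difference of -0.71 in that set and 0.022 in the other. RNA integrity, read as a 3′ minus 5′ value, was 0.15 for GAPDH on LPS 1 and 0.13 on control 1, where all arrays ran from 0.13 to 0.16. For ACTB it was 0.41 on LPS 1 and 0.37 on control 1, the lowest of the arrays, which ran from 0.37 to 0.48. The part of the array sets and of RNA integrity in the MALAT1 pattern was not tested. What the arrays numbered 1 share beyond their number is not given in the labels. Of the 971 genes ranging over at least 0.5, ALOX5, MEX3D, CADM1, TBCB and PPP1R14B were most like the brightest MALAT1 probe set, with correlations of 0.88 to 0.96, a list made after the MALAT1 values were seen. ALOX5, which starts leukotriene synthesis, stood at 10.59, 10.03 and 10.14 on the LPS arrays and at 10.64, 10.29 and 10.24 on the control arrays. None of the 5 passed limma's test for LPS, with adjusted p-values from 0.885 to 0.984.

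Among proteins of paraspeckles and nuclear speckles, 1 rose, where 0.389% of all genes passed. Of 15 listed paraspeckle proteins 13 were measured, with 9 above 0, 4 below and a median of 0.11. PSPC1, a core paraspeckle protein, stood at 9.79, 9.96 and 9.87 on the LPS arrays and at 9.33, 9.35 and 9.25 on the control arrays. It rose by 0.56 (SE 0.087, adjusted p = 0.0142), while the 4 dimmer PSPC1 probe sets, at -0.01 to 0.40, missed the threshold. The call of PSPC1 was lost without single arrays, while its difference stayed at 0.52 to 0.60: its adjusted p was 0.0589 without control 2, 0.149 without control 3, 0.0569 without LPS 1 and 0.149 without LPS 2. SFPQ, its partner protein, was at 0.23 (adjusted p = 0.603) and the RNA processing factor NUDT21 at 0.21 (adjusted p = 0.620). Of 12 nuclear speckle proteins 11 were measured and 0 passed by limma, also with 0 at an unadjusted p under 0.05. Of these 10 lay above 0, with a median of 0.09, led by the splicing factors RNPS1 at 0.20 (adjusted p = 0.620), SON at 0.19 (adjusted p = 0.670) and SRRM1 at 0.21 (adjusted p = 0.677).

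GAS5 differed more by array set than by LPS. It stood at 6.47, 6.56 and 6.81 on the LPS arrays and at 6.50, 6.79 and 6.75 on the control arrays, which overlapped. GAS5 averaged 6.61 ± 0.17 in LPS cells and 6.68 ± 0.16 in control cells (SD, n = 3 each), a difference of -0.06 (SE 0.091). The 3 arrays of set B, LPS 3, control 2 and control 3, all lay above the 3 of set A, LPS 1, LPS 2 and control 1. With LPS in the fit, set B exceeded set A by 0.28, and within the sets the LPS difference was 0.018 in A and 0.044 in B. The spread of GAS5 within groups exceeded that of 98.1% of 22840 probe sets within 0.5 of its level. These values come from 1 probe set with a mean of 6.65, near the array medians of 6.42 to 6.47. No detection calls were used, so they are not shown to be above background.

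The genes linked to GAS5 by function showed 0 calls by limma's test, where 0.389% of all genes passed. Only 7 of 20 other snoRNA host genes had a probe set with a single symbol, with a median of 0.02. TMEM107 was at -0.25 (adjusted p = 0.320), SNHG32 at -0.17 (adjusted p = 0.679) and SNHG17 at 0.19 (adjusted p = 0.704). Of 10 factors of nonsense-mediated decay, the pathway that degrades GAS5 RNA, 6 were measured, with 4 above 0 and a median of 0.11. The helicase UPF1 was at 0.29 (adjusted p = 0.548), SMG5 at 0.16 (adjusted p = 0.769) and UPF2 at 0.14 (adjusted p = 0.771). Of 10 genes of the glucocorticoid receptor response, 8 were measured, with a median of -0.03. TSC22D3, a glucocorticoid-induced leucine zipper protein, was at -0.25 (adjusted p = 0.620), the phosphatase DUSP1 at -0.09 (adjusted p = 0.755) and the transcription factor KLF9 at -0.08 (adjusted p = 0.804).

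Apart from the members, 2 of 2691 noncoding genes passed limma's test, 1 higher and 1 lower. An unadjusted p under 0.05 was found for 148. The share that passed was 0.0743% of the 2691, and 0.442% of 16520 protein coding genes passed. The median level was 6.20 for these noncoding genes and 7.08 for the protein coding genes, so the shares do not compare like with like. With dim probe sets filtered out, 743 noncoding genes remained and 2 passed. The median difference of the 2691 was -0.01. DDX11-AS1 fell by 0.61 (SE 0.083, adjusted p = 0.00843), at 7.04, 7.24 and 7.37 on the LPS arrays and 7.84, 7.78 and 7.86 on the control arrays. FAM167A-AS1 rose by 0.58 (SE 0.10, adjusted p = 0.0295), at 9.81, 9.62 and 9.54 on the LPS arrays and 9.15, 9.17 and 8.92 on the control arrays. Neither group of values overlapped. Both calls were lost without single arrays, while the differences stayed at -0.62 to -0.59 for DDX11-AS1 and 0.50 to 0.62 for FAM167A-AS1. The adjusted p of DDX11-AS1 was 0.0821 without control 3 and 0.0790 without LPS 2. That of FAM167A-AS1 was 0.0758 without control 2, 0.251 without control 3, 0.196 without LPS 1 and 0.178 without LPS 2.

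The sense genes of these antisense RNAs were looked up after the values were seen. FAM167A fell by 0.67 (SE 0.087, adjusted p = 0.00738), opposite in sign to FAM167A-AS1, at 8.36, 8.46 and 8.58 on the LPS arrays and 9.08, 9.10 and 9.23 on the control arrays. The other FAM167A probe set was at 0.02. Without control 3 FAM167A was at -0.63 (adjusted p = 0.0727), and without LPS 2 at -0.67 (adjusted p = 0.0790). DDX11, a DNA helicase, was at 0.01 (adjusted p = 0.988). The labels do not say how strand was treated, so a probe set may also read the opposite strand where sense and antisense RNAs overlap.

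The next 6 noncoding genes by adjusted p did not pass. With array set as a term in the fit all 6 did, with adjusted p-values from 0.00947 to 0.0380. That fit called 11 of the 2691 noncoding genes, against 2 without the term. Since the 6 were picked by their p in this same contrast, their passing is no separate result. DLGAP1-AS1 was at -0.32 (adjusted p = 0.0541), HCP5, which lies among the MHC genes, at 0.39 (adjusted p = 0.0544) and NIFK-AS1 at -0.30 (adjusted p = 0.0790). LOC105372547 was at -0.23 (adjusted p = 0.100), LOC105379499 at -0.49 (adjusted p = 0.116) and DPH5-DT at 0.38 (adjusted p = 0.142). The coding partners NIFK and DPH5 were at 0.04 (adjusted p = 0.955) and -0.09 (adjusted p = 0.873).

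**Figure D5:**
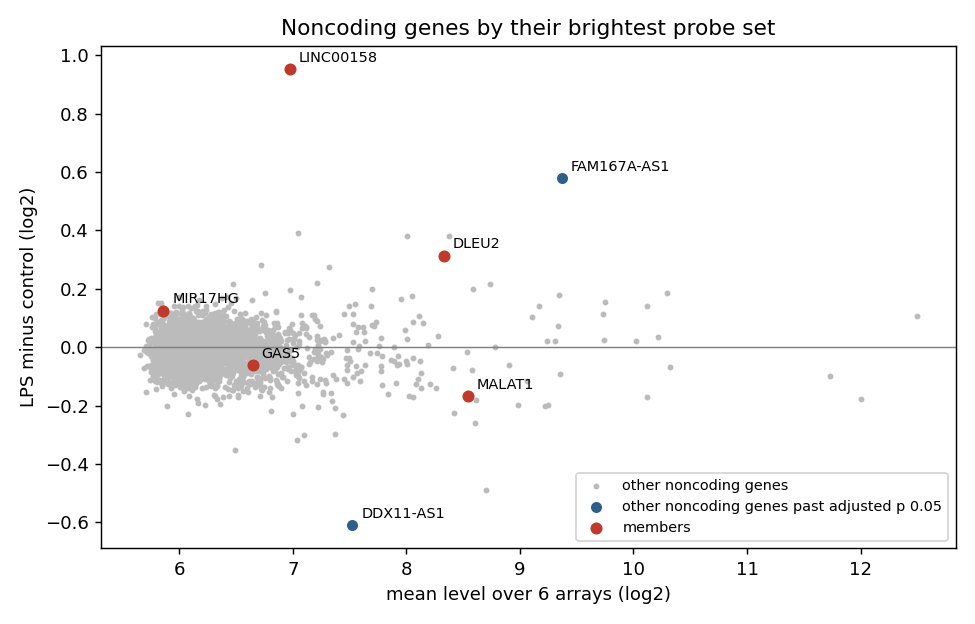
LPS minus control difference (y axis, log2) against mean level over the 6 arrays (x axis, log2) of 2684 noncoding genes by their brightest probe set, with the 5 members in red and 2679 others in grey or blue. LINC00158 at 0.95 is highest; FAM167A-AS1 at 0.58 and DDX11-AS1 at -0.61, in blue, are the others past an adjusted p of 0.05.

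Facts of the arrays bear on all these values. By the mean level of 18 added hybridisation control probe sets the arrays fell into set A (LPS 1, LPS 2 and control 1, 10.20 to 10.29) and set B (LPS 3, control 2 and control 3, 10.51 to 10.61). LINC00158 differed by 0.93 within set A and 1.05 within set B, each resting on 1 array of one of the groups. Array medians ran from 6.42 to 6.47, correlations between arrays from 0.992 to 0.997, and 0 values were shared between arrays. The means of 5 measured B cell markers were 10.61 to 10.67 in LPS cells and 10.65 to 10.79 in control cells, with 2 of the 5 at an unadjusted p under 0.05. CD79A was at -0.38, CD22 at -0.20, CD79B at -0.18, MS4A1 at -0.07 and PAX5 at 0.31. Summed as list means, 7 monocyte markers stood at 6.20 to 6.25 in LPS cells and 6.21 to 6.28 in control cells, and 6 T and NK cell markers at 6.31 to 6.36 and 6.27 to 6.36, all near the array medians. Fibroblast and epithelial markers, 5 measured, stood at 6.69 to 6.82 and 6.67 to 6.76, with COL1A1 the highest at 7.99 in both groups. The means of 4 germinal centre markers were 9.30 to 9.37 in LPS cells and 9.56 to 9.63 in control cells, with 3 of the 4 at an unadjusted p under 0.05. CD38 was at -0.33, MME at -0.32, BCL6 at -0.31 and SERPINA9 at -0.05. Of all lists, 0 markers passed. Fewer cells with a transcript and less RNA of it per cell cannot be told apart in these samples, and the part of the markers in the members' values was not tested.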

How the data were processed

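RNA of 3 LPS and 3 control samples of BL-2 was purified on a column, biotin labelled by in vitro transcription and hybridised to Affymetrix arrays, per the labels' protocols. The values deposited by the authors, 1 for each probe set of each array, are read as log2 because all lay between 5.46 and 14.81; the log base is thus inferred. Background correction, summary and normalisation are not given in the sources used here. No depth applies to arrays: their number limits the precision, and the median SE of a difference was 0.063.

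Of 54675 probe sets 62 Affymetrix controls were left out. Of the tested probe sets 41091 have 1 symbol in the platform annotation; each gene is represented by the brightest of these. The fit used R 4.3.3 and limma 3.58.1, with group as the only term, two-sided moderated tests whose variance prior followed intensity, and p-values adjusted by Benjamini-Hochberg at 0.05 across the 54613 probe sets, also for the counts of genes. It was tested on simulated data. Levels of different probe sets are not comparable.

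Members and lists were chosen with earlier results of these data known. Named are all member probe sets, all 16 neighbours, the 8 noncoding genes with the smallest adjusted p, the called genes of each list or its 3 with the smallest p, and the 5 genes most correlated with LINC00158; the same choice could not be made for MIR155HG. Genes alike to MALAT1, sense partners and single marker genes were named after their values were seen. Alternatives were a replicate block, an array set block, quantile normalisation, median centring, a filter on dim probe sets, no trend, array weights, other probe set choices and leaving out each array. The array sets were parted at the widest gap, 0.22 against 0.081 for the next.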

Additional observations from a re-analysis of the deposited data

How the results depend on the processing

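LINC00158 lay between 0.90 and 1.01 under all 15 alternatives. Several of these cannot move its difference: the replicate block, the dim filter, no trend and the other probe set choices. Under each of 13 alternatives 1 member probe set passed. Nothing is read from this, since LINC00158 was chosen by the same contrast. Of 289 recomputed member values 288 stayed within 1 SD and 1 moved beyond it: DLEU2 216870_x_at, at 0.076 as the mean over its probe sets. The sign changed in 34 of the 289, in 13 probe sets of MALAT1, GAS5 and DLEU2 whose reported differences were at most 0.17 in size. The number of probe sets called moved more: 144 in the fit reported, 498 with the replicate block, 734 with the array set block, 292 with quantile normalisation and 309 with array weights. Noncoding genes called other than the members were 2, against 8, 11, 4 and 7 under the same settings in that order and 4 with median centring. Of 143 list genes 2 were called, against 5, 8, 4 and 4 in that order; with the replicate block these included RELB and IRF4. Leaving out each array in turn gave 10 to 374 probe sets, 0 to 7 noncoding genes and 0 to 5 list genes. Probe sets called were 374, 46 and 14 when control 1, 2 or 3 was left out and 44, 10 and 120 when LPS 1, 2 or 3 was, and noncoding genes called were 0 without control 3 and without LPS 2. Whether the replicate numbers pair the samples is not settled here. Deviations of same-numbered arrays correlated at 0.44, -0.04 and 0.23, and LPS 2 and LPS 3 did not correlate best with their own number. The array sets cut across the replicate numbers, with LPS 2 in set A and control 2 in set B, so these correlations cannot decide it. The block stands as an alternative and its counts say nothing of pairing. The cause of these moves was not tested. The number of arrays, 3 per group, limits how small a difference could pass.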
